A study of Homo sapiens with 12 samples.

Results

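The 10 genes described here are the CDK inhibitors of the CIP/KIP family (CDKN1A, CDKN1B, CDKN1C), 3 inhibitors of the INK4 family (CDKN2A, CDKN2B, CDKN2C), the 3 D cyclins (CCND1, CCND2, CCND3) and MTAP, the neighbour of CDKN2A on chromosome band 9p21. They were taken by gene name from a table of 58302 genes, and all 10 were listed in it. RNA from the established human glioma cell lines U251 and U87 was sequenced after enrichment for polyadenylated RNA, with 12 libraries in 4 groups of 3. U251 artesunate cells received 180 µM for 24 h, and U251 control cells received medium labelled 10% DMEM. U87 artesunate cells received 24.08 µM for 24 h, and U87 control cells received the same medium. All libraries carry the label day 9, a solvent control is not named, and an extraction note names artemisinin where the other labels name artesunate. Line and dose differ together, so they cannot be told apart in any comparison of the artesunate effects.

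D cyclins bind CDK4 and CDK6 and start the phosphorylation of the retinoblastoma protein, which frees E2F transcription factors and commits a cell to S phase. INK4 proteins bind CDK4 and CDK6 and keep D cyclins off them. CIP/KIP proteins bind whole cyclin-CDK complexes, chiefly those of CDK2. CDKN2A encodes both p16INK4A and p14ARF, and in glioma 9p21 is known as a region that is often deleted, with MTAP frequently lost beside CDKN2A and CDKN2B.

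Library totals ran from 13631985 to 17314284 counts, so that 3 counts, the floor used below, corresponded to 0.168 to 0.219 CPM (counts scaled to library size). Libraries of the U87 artesunate group correlated at 0.972 to 0.981 across genes (Pearson's r), and those of the other groups at 0.985 to 0.987. U87 artesunate 2 stood apart from its group, and results that rest on it are also given without it. Of 10 glioma or astrocyte markers, 7 averaged at least 1 FPKM (fragments per kilobase of transcript, scaled to library size, a level per length) in some group. VIM, NES, CD44 and SLC1A3 were present in both lines. NES averaged 24.9 FPKM in U251 artesunate, 26.2 in U251 control, 2.1 in U87 artesunate and 13.1 in U87 control libraries. SOX2 averaged 96.5 FPKM in U251 artesunate and 100 FPKM in U251 control libraries but had no count in U87. GFAP averaged 1.22 FPKM in U251 artesunate, 1.46 in U251 control, 0.035 in U87 artesunate and 0.0223 in U87 control libraries. OLIG2 averaged 1.13 FPKM in U87 artesunate, 0.507 in U87 control and 0.023 in U251 control libraries, with no count in U251 artesunate. S100B and ALDH1L1 averaged at most 0.365 and 0.0226 FPKM in any group, and AQP4 had no count in either line. Among 5 microglia or leukocyte markers AIF1 and CD3E had no count, and the summed level was 0.731 to 1.32 FPKM in U251 artesunate, 0.0676 to 0.563 in U251 control, 4.62 to 11 in U87 artesunate and 12 to 20.4 in U87 control libraries. CD68 made up most of the sum in U87. The 5 endothelial markers summed to 8.51 to 9.52 FPKM in U251 artesunate, 13.8 to 14.6 in U251 control, 2.78 to 4.02 in U87 artesunate and 5.53 to 6.14 in U87 control libraries, nearly all from KDR. The 5 neuron markers summed to 3.58 to 4.08 FPKM in U251 artesunate, 3.39 to 3.81 in U251 control, 4.74 to 4.94 in U87 artesunate and 6.61 to 8.13 in U87 control libraries. The 5 epithelial markers summed to 2.65 to 3.58 FPKM in U251 artesunate, 3.25 to 5.35 in U251 control, 0.304 to 0.526 in U87 artesunate and 0.694 to 0.835 in U87 control libraries. The part of these markers in the results below was not tested.

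A promoter window of 300 bases around the start of transcription was found in RefSeq (GRCh38.p14) for 7 of the 10 genes, all but CDKN1C, CCND1 and CCND2. Printed here, 5′ to 3′ on the gene's strand, are the windows of the genes with the largest artesunate change in each line, MTAP (U251) at chr9:21802386-21802685 on the plus strand and CCND3 (U87) at chr6:41941759-41942058 on the minus strand. CCND3 has 3 start windows in RefSeq, and the one shown was picked because it holds both motifs marked. Its GC and CCAAT boxes therefore carry no comparison with other windows. The CCND3 window at chr6:42048639-42048938 holds 5 GC boxes and 0 CCAAT boxes, and that at chr6:41939156-41939455 holds 0 GC boxes and 1 CCAAT box. Capitals mark the GC box GGGCGG and the CCAAT box CCAAT on either strand.
MTAP: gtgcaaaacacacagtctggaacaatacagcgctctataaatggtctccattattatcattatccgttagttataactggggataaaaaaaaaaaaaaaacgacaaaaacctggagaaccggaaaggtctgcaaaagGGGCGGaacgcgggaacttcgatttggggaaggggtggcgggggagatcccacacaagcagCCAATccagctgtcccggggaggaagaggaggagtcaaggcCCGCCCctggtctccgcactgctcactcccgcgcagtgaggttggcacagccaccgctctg
CCND3: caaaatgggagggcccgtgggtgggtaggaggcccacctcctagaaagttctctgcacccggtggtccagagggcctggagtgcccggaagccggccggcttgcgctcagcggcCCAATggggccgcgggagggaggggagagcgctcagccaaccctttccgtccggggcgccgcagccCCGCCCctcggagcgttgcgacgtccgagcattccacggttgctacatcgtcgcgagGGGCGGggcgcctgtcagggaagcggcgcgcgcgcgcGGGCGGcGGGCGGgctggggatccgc
The MTAP window holds 2 GC boxes, 1 CCAAT box and 1 match to TATAAA, which is left in lower case. The CCND3 window holds 4 GC boxes and 1 CCAAT box. Of 35116 promoter windows of this length, 45.0% hold a GC box, 34.6% a CCAAT box and 11.5% TATAAA on either strand. Neither window holds the letters of an AP-1 site (TGANTCA, in 7.71% of windows), a cyclic AMP response element (TGACGTCA, 1.85%), an E2F site (TTTCGCGC, 0.515%, or TTTGGCGC, 0.652%), an amino acid response element (TGATGNAA, 3.62%), an E-box (CACGTG, 7.26%) or the hypoxia core (ACGTG, 21.4%), which lies within the E-box. These are matches of letters in 1 window per start and say nothing of binding.

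No INK4 gene of the set was detected. CDKN2A (ENSG00000147889, GRCh38 chr9:21967753-21995301, minus strand), CDKN2B (ENSG00000147883, chr9:22002903-22009363, minus strand), which encodes p15INK4B, and CDKN2C (ENSG00000123080, chr1:50960745-50974633, plus strand), which encodes p18INK4C, each had 0 counts in all 12 libraries. At these depths a count of 0 allows up to 0.219 CPM in the shallowest library, a limit that covers counting error only. CDKN2B-AS1, the antisense RNA that overlaps CDKN2A and CDKN2B, also had 0 counts in every library. With no value in any group, these genes carry no comparison between artesunate and control.

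The run of protein-coding genes without counts at 9p21 was far longer in U87 than in U251. Of the 26 protein-coding genes within 2 Mb of CDKN2A, 13 had 0 counts in all 6 U251 libraries and 25 had 0 counts in all 6 U87 libraries. In U251 the run of protein-coding genes without counts around CDKN2A, in order of gene start, held AL359922.1, CDKN2A and CDKN2B and no other. Next to it in that order were MTAP with 12829 counts and DMRTA1, a DM-domain transcription factor gene, with 3134 counts over 6 libraries. AL359922.1 (chr9:21802636-22032986, plus strand) overlaps MTAP, CDKN2A and CDKN2B, so its lack of counts does not mark a separate stretch. The other 10 protein-coding genes at 0 in U251 were interferon genes, which had no count in U87 either. In U87 the run of protein-coding genes without counts reached from MLLT3 (start 20341665) to DMRTA1 (end 22455740) on chromosome 9. It was flanked by SLC24A2, a sodium, calcium and potassium exchanger with 1752 counts over the 6 U87 libraries, and by ELAVL2, a neuronal RNA-binding protein with 113 counts summed over U87 artesunate and 198 over U87 control libraries. A window of 0.5 Mb in place of 2 Mb gave 3 of 6 protein-coding genes at 0 in U251 and 6 of 6 in U87. Among genes of other types, the pseudogene KHSRPP1 inside the U87 run had 1 count in U87 artesunate and 13 in U87 control libraries. The pseudogene CLIC4P1, between DMRTA1 and ELAVL2, had 411 counts in U87 artesunate and 229 in U87 control libraries. DNA copy number was not measured.

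U251 libraries had counts in the other 13 protein-coding genes of the window. Summed over 3 libraries, MLLT3, a chromatin reader of transcription elongation, had 793 counts in U251 artesunate and 802 in U251 control cells. FOCAD had 4038 counts in U251 artesunate and 5565 in U251 control cells, and KLHL9, an adaptor of a cullin ubiquitin ligase, had 6759 counts in U251 artesunate and 7371 in U251 control cells. MTAP, in the same window, had 8740 counts in U251 artesunate and 4089 in U251 control cells. DMRTA1 had 1504 counts in U251 artesunate and 1630 in U251 control cells, and ELAVL2 had 122 counts in U251 artesunate and 203 in U251 control cells. IFNE, interferon epsilon, had 152 counts in U251 artesunate and 93 in U251 control cells, and HACD4, an enzyme of fatty acid elongation, had 25 in U251 artesunate and 53 in U251 control cells. These are raw sums without a test.

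**Figure D1:**
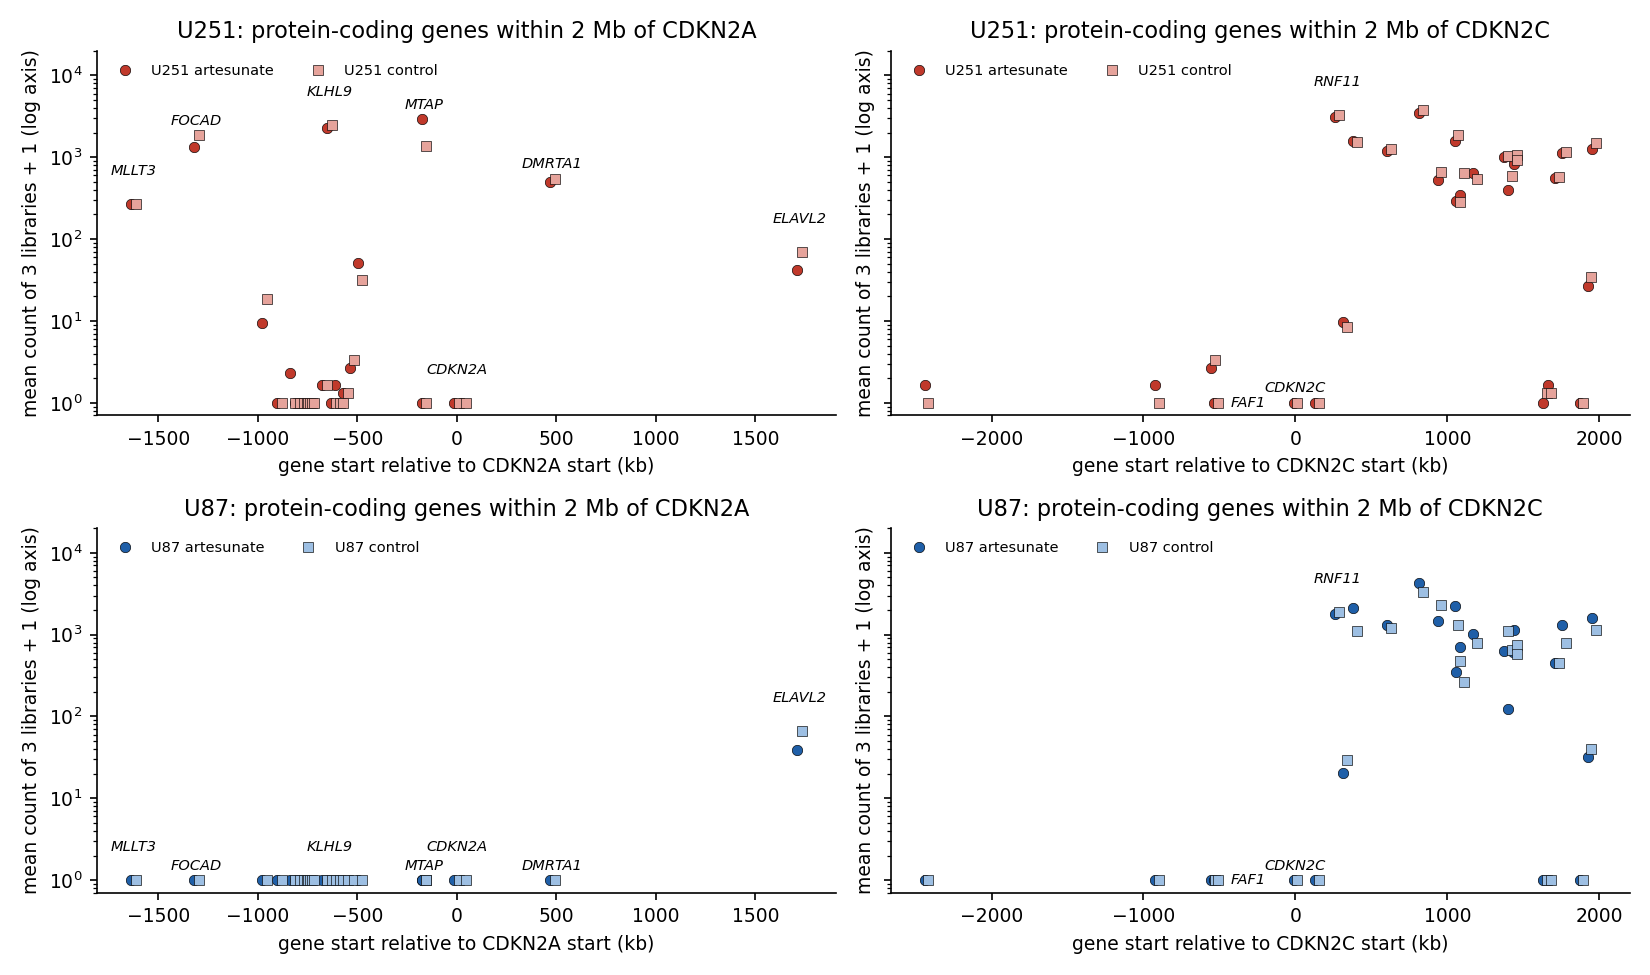
Mean count of 3 libraries plus 1 (log axis) of every protein-coding gene within 2 Mb of CDKN2A (left) and of CDKN2C (right), placed by its start relative to that gene in kb, in U251 (top) and U87 (bottom); circles are artesunate and squares control groups, drawn slightly apart. In U87 only ELAVL2 of the 26 genes near CDKN2A lies above the line for 0 counts, while 13 do in U251.

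The gap at CDKN2C was shared by both lines. FAF1 (chr1:50437028-50960263), which encodes a ubiquitin-binding partner of the VCP ATPase and ends just before CDKN2C, had 0 counts in all 12 libraries, as did C1orf185 on the other side. The next gene, RNF11 (start 51236271), a RING-finger ubiquitin ligase gene, had 9327 counts in U251 artesunate, 9747 in U251 control, 5384 in U87 artesunate and 5689 in U87 control libraries, each summed over 3. On the other flank the next protein-coding gene with counts was DMRTA2 in U251, with 12 counts over 6 libraries, and BEND5 in U87, with 2. The neighbours of CDKN2C were examined after its counts had been seen.

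The remaining INK4 gene, CDKN2D, which encodes p19INK4D and is not among the 10, was present in both lines. CDKN2D had 11.8, 12.2 and 10.4 FPKM in U251 artesunate libraries, against 9.60, 11.2 and 11.6 FPKM in U251 control libraries. It had 2.19, 2.93 and 1.53 FPKM in U87 artesunate libraries, against 7.85, 8.46 and 10.3 FPKM in U87 control libraries. The ranges overlapped in U251 and were apart in U87, where CDKN2D fell by 1.94 ± 0.20 on the log2 scale (SE; edgeR quasi-likelihood test, Benjamini-Hochberg adjusted p = 7.6e-06). In U251 the log2 fold change was 0.12 ± 0.18 (edgeR adjusted p = 0.75). With a correction for GC content and length the U87 value was -0.87 (edgeR adjusted p = 0.00083).

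Of the 10 genes 6 passed the filter on low counts and were tested (CDKN1A, CDKN1B, CDKN1C, MTAP, CCND1 and CCND3). MTAP and CDKN1C passed through U251 only. At an adjusted p under 0.05, 2 of the 6 changed with artesunate in U251, where 8.34% of 17150 tested genes were called. In U251 1 member rose, against 4.09% of all tested genes, and 1 fell, against 4.26%. That background moved with single libraries, from 1431 called genes to 652 and 680 without U251 artesunate 1 and 2, to 775, 671 and 693 without U251 control 1, 2 and 3, and to 2582 without U87 artesunate 2. In U87 MTAP and CDKN1C had no value to compare, and 2 of the other 4 changed, a share near the 58.3% called among all tested genes. Both fell, against 29.2% of all tested genes that fell and 29.2% that rose. Of these 4 members, 0 rose by the main edgeR fit, DESeq2 or limma on log2(FPKM + 1). By the same 3 tests, 0 were positive at an unadjusted p under 0.05. Under other settings CDKN1A was called higher in U87. It was 1.22 with a correction for GC content and length (edgeR adjusted p = 1.4e-05) and 0.60 without U87 artesunate 1.

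MTAP (ENSG00000099810, chr9:21802543-21937651, plus strand) encodes methylthioadenosine phosphorylase, which returns a by-product of polyamine synthesis to the methionine and adenine salvage pathways. It more than doubled its level in U251 under artesunate. MTAP had 9.06, 8.45 and 9.48 FPKM in U251 artesunate libraries, against 4.39, 4.16 and 3.97 FPKM in U251 control libraries. All 3 artesunate libraries lay above all 3 controls. MTAP rose by 1.14 ± 0.09 on the log2 scale (SE; 2.21-fold, edgeR adjusted p = 0.00045), and 24 alternative settings gave 0.95 to 1.27, each of them called. AL359922.2, an antisense RNA inside MTAP, had 166 counts in U251 artesunate and 224 in U251 control libraries, and whether the counting used strand is not given in the sources used here. AL359922.1, a protein-coding gene that overlaps MTAP on the same strand, had 0 counts in every group. In U87 MTAP had 0 counts in all 6 libraries and carries no artesunate comparison.

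**Figure D2:**
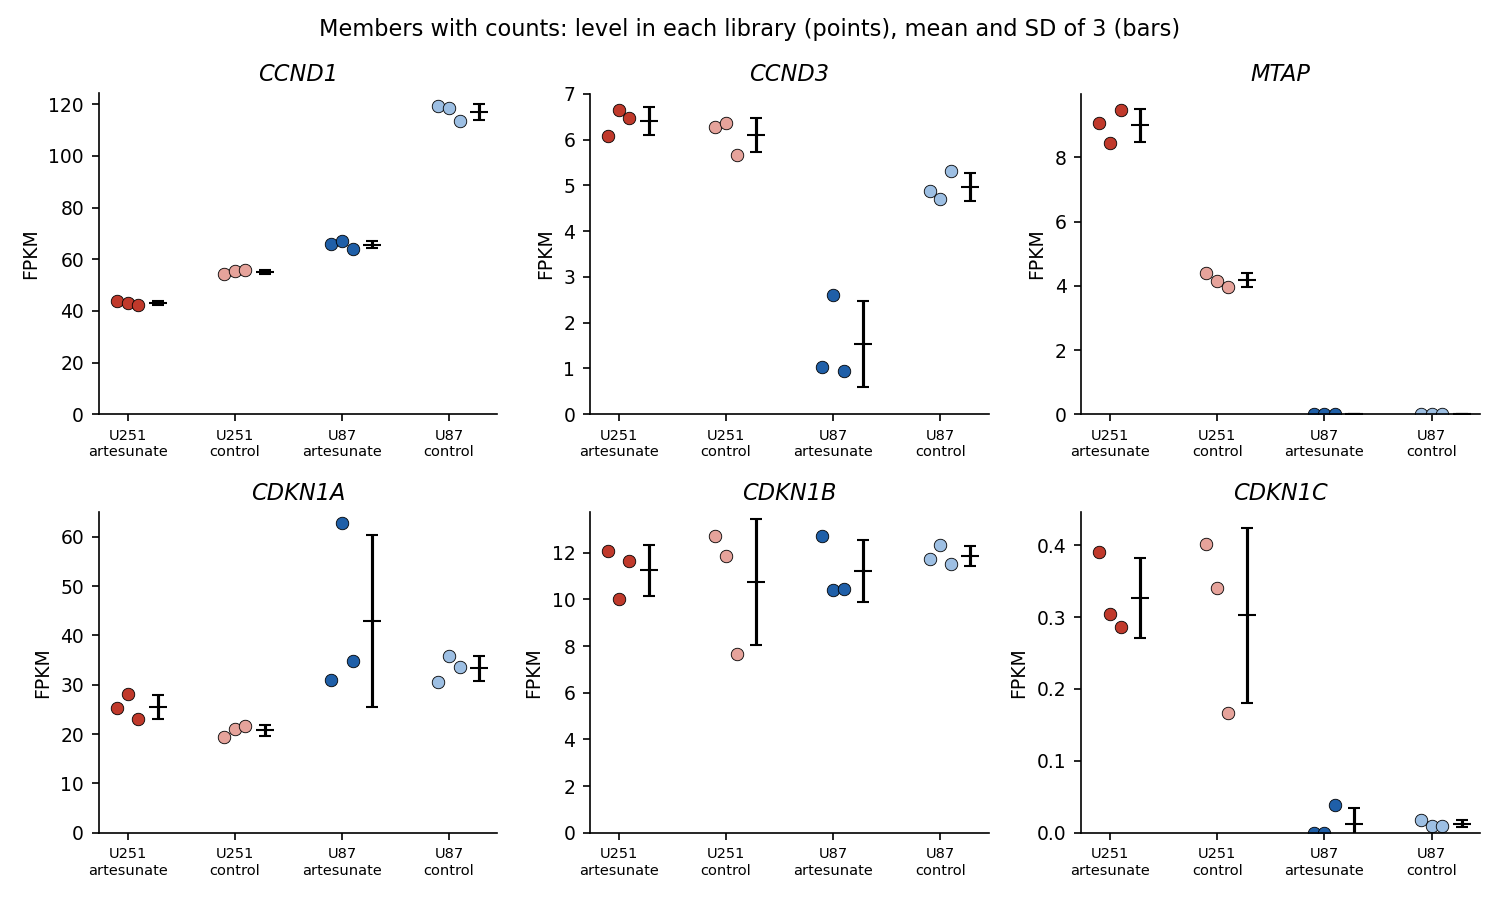
FPKM of the 6 tested genes in each library (points) with the mean and SD of 3 (bars), for U251 artesunate, U251 control, U87 artesunate and U87 control libraries; each panel has its own linear axis from 0. CCND1 separates all 4 groups, MTAP is at 0 in U87, and U87 artesunate 2 lies above its group for CDKN1A and CCND3.

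Cyclin D1 transcripts were lower under artesunate in both lines, and more so in U87. CCND1 (ENSG00000110092, chr11:69641087-69654474, plus strand) had 43.9, 42.9 and 42.3 FPKM in U251 artesunate libraries, against 54.3, 55.5 and 55.7 FPKM in U251 control libraries. It had 65.9, 67.1 and 64.1 FPKM in U87 artesunate libraries, against 119, 118 and 114 FPKM in U87 control libraries. None of the 4 groups overlapped another, and even the U87 artesunate libraries stayed above both U251 groups. CCND1 fell by 0.32 ± 0.06 on the log2 scale in U251 (SE; 0.80 of the control level, edgeR adjusted p = 0.0061) and by 0.76 ± 0.06 in U87 (0.59 of the control level, edgeR adjusted p = 9.6e-07). The difference of these effects, U251 minus U87, was 0.44 ± 0.08 (edgeR adjusted p = 0.00099). Without U87 artesunate 2 the U87 value was -0.77 (edgeR adjusted p = 7.4e-07) and the difference 0.43 (edgeR adjusted p = 0.00043). In cell populations such as these, fewer cells of a kind and less RNA per cell cannot be told apart. LTO1, which overlaps the end of CCND1 on the opposite strand, had 726 counts in U251 artesunate, 447 in U251 control, 932 in U87 artesunate and 1670 in U87 control libraries.

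Cyclin D3 transcripts fell in U87 under artesunate, and no change was called in U251. CCND3 (ENSG00000112576, chr6:41934933-42050357, minus strand), whose window is printed above, had 1.03, 2.61 and 0.954 FPKM in U87 artesunate libraries, against 4.87, 4.71 and 5.32 FPKM in U87 control libraries. All 3 artesunate libraries lay below all controls, with U87 artesunate 2 well above the other two. CCND3 fell by 1.64 ± 0.29 on the log2 scale in U87 (SE; 0.32 of the control level, edgeR adjusted p = 0.0004). The value was -2.24 (edgeR adjusted p = 3.3e-08) without U87 artesunate 2 and -1.04 (edgeR adjusted p = 0.0033) with the correction for GC content and length. In U251 CCND3 had 6.07, 6.65 and 6.48 FPKM in artesunate libraries, against 6.27, 6.36 and 5.67 FPKM in control libraries, and these ranges overlapped. The U251 log2 fold change was 0.10 ± 0.27 (edgeR adjusted p = 0.88) and changed sign under the GC and length correction, to -0.03. The effects differed between the lines by 1.74 ± 0.39, U251 minus U87 (edgeR adjusted p = 0.0031), by 2.34 without U87 artesunate 2 (edgeR adjusted p = 2.8e-07) and by 1.01 with the GC and length correction (edgeR adjusted p = 0.033). Of the 4 members with a value in both lines, these 2 D cyclins were called for a difference of the artesunate effects, a share near the 49.4% called among all tested genes (24.1% in the same direction).

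CCND2 (ENSG00000118971, chr12:4273772-4305350, plus strand), the third D cyclin, had 1 count in U251 artesunate 2, 1 count in U251 artesunate 3 and none in the other 10 libraries. CCND1 therefore made up most of the summed D cyclin FPKM. The shares below depend on the lengths behind the deposited FPKM, which need not be those of single transcripts. For CDKN1C, 2.149 CPM and 0.3266 FPKM in U251 artesunate libraries give a length beyond its gene span, chr11:2883213-2885881. By CPM, CCND1 made up 75.8% of the D cyclin sum in U251 artesunate, the lowest group, and 95.3% in U87 artesunate, the highest. The summed D cyclin level was 49.4 ± 0.62 FPKM in U251 artesunate and 61.3 ± 0.65 FPKM in U251 control libraries (SD, n = 3 each). It was 67.2 ± 2.36 FPKM in U87 artesunate and 122 ± 2.85 FPKM in U87 control libraries (SD, n = 3 each). CCND1 made up 87.03% of that sum in U251 artesunate, 90.0% in U251 control, 97.8% in U87 artesunate and 95.9% in U87 control libraries. CCND3 made up 13.0% in U251 artesunate, 9.96% in U251 control, 2.25% in U87 artesunate and 4.07% in U87 control libraries. Its share was thus higher under artesunate in every U251 library and lower under artesunate in every U87 library, with the groups of each line apart.

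**Figure D3:**
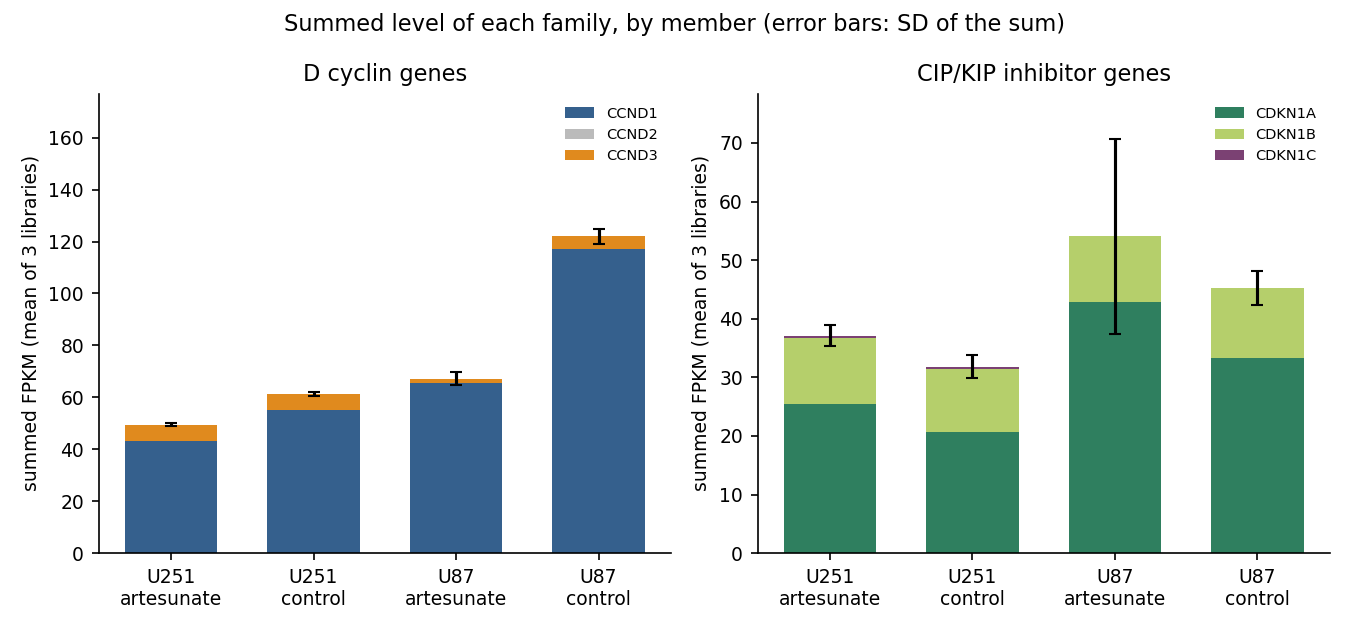
Summed FPKM of the D cyclin genes (left) and the CIP/KIP inhibitor genes (right) as stacked means of 3 libraries per group, with error bars for the SD of the sum over libraries. CCND1 fills most of each D cyclin bar, CDKN1A most of each CIP/KIP bar, and the U87 artesunate CIP/KIP sum has the widest error, 54.1 ± 16.6 FPKM.

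CDKN1A (ENSG00000124762, chr6:36676460-36687339, plus strand), which encodes p21, the CDK inhibitor induced by p53, was not called in either line under artesunate. It had 31.0, 62.9 and 34.8 FPKM in U87 artesunate libraries, against 30.6, 35.8 and 33.7 FPKM in U87 control libraries. U87 artesunate 2 alone lay far above the controls, and the other 2 artesunate libraries lay within their range. The U87 log2 fold change was 0.43 ± 0.20 (SE; edgeR adjusted p = 0.089). It was 0.06 without U87 artesunate 2 (edgeR adjusted p = 0.62) and 0.60 without U87 artesunate 1, which was called (edgeR adjusted p = 0.019). The correction for GC content and length gave 1.22 in U87, which was also called (edgeR adjusted p = 1.4e-05), so the call rests on the setting. In U251 CDKN1A had 25.4, 28.1 and 23.1 FPKM in artesunate libraries, against 19.4, 21.1 and 21.7 FPKM in control libraries. The U251 groups did not overlap, yet the log2 fold change was 0.33 ± 0.20 (edgeR adjusted p = 0.35). It was called when the fit held only the 6 U251 libraries (0.33, edgeR adjusted p = 0.041) or left out U87 artesunate 2 (0.33, edgeR adjusted p = 0.038), and over all 24 alternatives the adjusted p ran to 0.64. The difference between the lines was -0.09 ± 0.28 (edgeR adjusted p = 0.84) and -1.05 with the GC and length correction (edgeR adjusted p = 0.0011).

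CDKN1B (ENSG00000111276, chr12:12715058-12722371, plus strand), which encodes p27, averaged 10.8 to 11.9 FPKM over the 4 groups. It had 12.1, 10.0 and 11.6 FPKM in U251 artesunate libraries, against 12.7, 11.9 and 7.67 FPKM in U251 control libraries. It had 12.7, 10.4 and 10.5 FPKM in U87 artesunate libraries, against 11.7, 12.3 and 11.5 FPKM in U87 control libraries. All 4 ranges overlapped their neighbours in the order of means. The log2 fold change was 0.10 ± 0.17 in U251 (SE; edgeR adjusted p = 0.79) and -0.01 ± 0.17 in U87 (edgeR adjusted p = 0.99). The difference between the lines was 0.11 ± 0.24 (edgeR adjusted p = 0.77).

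CDKN1C (ENSG00000129757, chr11:2883213-2885881 as deposited, minus strand), which encodes p57, was low in U251 and near the floor in U87. It had 36, 32 and 30 counts in U251 artesunate libraries, against 39, 36 and 17 counts in U251 control libraries, with a log2 fold change of 0.14 ± 0.44 (SE; edgeR adjusted p = 0.90). U87 artesunate libraries had 0, 0 and 4 counts and U87 control libraries 2, 1 and 1, so no fold is given in U87. By deposited FPKM, whose lengths carry the limit given for the D cyclin shares, CDKN1A made up 68.7% of the CIP/KIP sum in U251 artesunate libraries. It made up 65.5% in U251 control, 77.8% in U87 artesunate and 73.7% in U87 control libraries. CDKN1B made up nearly all of the rest.

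**Figure D4:**
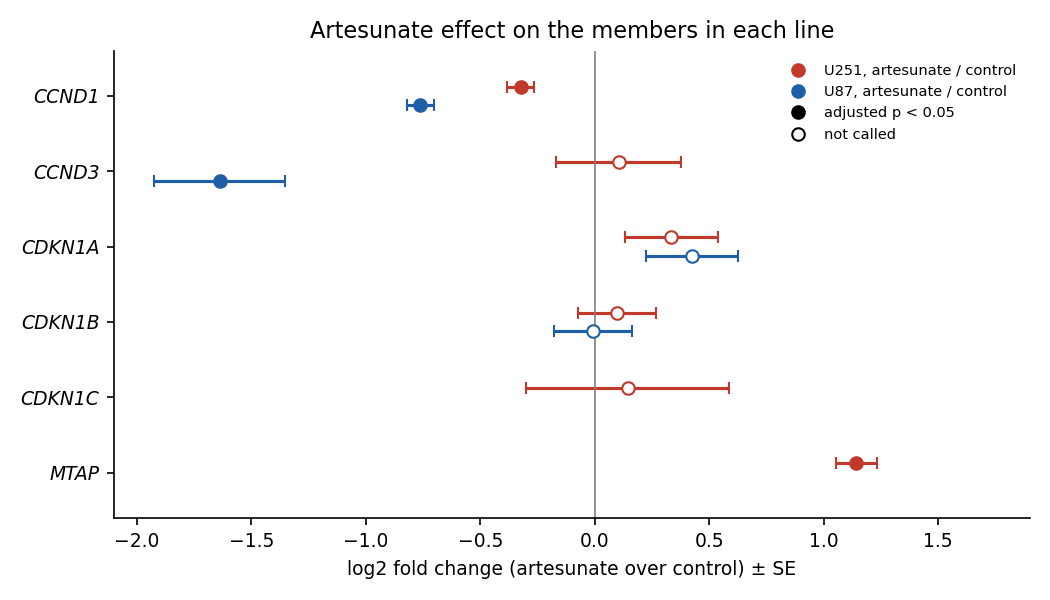
Log2 fold change of artesunate over control with its SE for the tested genes in U251 (red) and U87 (blue); filled points passed the adjusted p of 0.05 and open points did not. CCND1 is below 0 in both lines, CCND3 in U87 and MTAP above 0 in U251 are the other filled points, and MTAP and CDKN1C have no U87 point because U87 was at or near 0 counts.

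Between the lines without artesunate, 4 of the 6 tested genes differed (2 higher and 2 lower in U251), against 64.8% of all tested genes (32.5% higher and 32.3% lower). MTAP and CDKN1C had passed the filter through U251 alone and had to differ. MTAP averaged 86.0 ± 4.5 CPM in U251 control libraries against 0 in U87 control libraries (SD, n = 3), at least 482-fold higher in U251 at a floor of 3 counts per library. CDKN1C had 92 counts in U251 control and 4 in U87 control libraries, a ratio of 24.4 (95% interval 9.23 to 91.6, exact binomial on summed counts, counting error only). The artesunate groups gave at least 905-fold for MTAP and 22.9 (8.67 to 85.8) for CDKN1C, U251 over U87. CCND1 was lower in U251 controls than in U87 controls by a log2 difference of -1.06 ± 0.06 (SE; edgeR adjusted p = 1.8e-08). CDKN1A was lower in U251 controls at -0.66 ± 0.20 (edgeR adjusted p = 0.013), a call lost with the GC and length correction (-0.13, edgeR adjusted p = 0.37). CDKN1B differed by -0.12 ± 0.17 (edgeR adjusted p = 0.56). CCND3 differed by 0.32 ± 0.27 (edgeR adjusted p = 0.32), and was called higher in U251 with the 6 control libraries alone (0.32, edgeR adjusted p = 0.0078), without U87 artesunate 2 (0.32, edgeR adjusted p = 0.0034) and with the GC and length correction (0.81, edgeR adjusted p = 0.0073). These comparisons share their control libraries with the artesunate contrasts.

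A further 33 genes of the G1/S pathway, the kinases, pocket proteins, E2F factors, E cyclins and regulators of cyclin and p53 turnover, were all tested. In U251 6 of 33 fell and 27 were not called, where 8.34% of all tested genes were called and 4.26% fell. The median log2 fold change of the 33 was -0.22, against 0.00 for all tested genes. None rose by the edgeR test, while 1 gene was positive at an unadjusted p under 0.05 and 1 was called higher by DESeq2. The largest falls in U251 were E2F8, a repressor E2F (-0.65 ± 0.13, edgeR adjusted p = 0.011), CDK2, the partner of E cyclins (-0.61 ± 0.17, edgeR adjusted p = 0.045), and CCNE2, cyclin E2 (-0.60 ± 0.14, edgeR adjusted p = 0.022). The count of 6 was 2 without U251 artesunate 1, U251 artesunate 2, U251 control 1 or U251 control 2, 3 without U251 artesunate 3, and 9 without U87 artesunate 2. Of the 3 genes named, E2F8 was called under all 24 alternatives, CCNE2 under 16 and CDK2 under 14.

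In U87 11 of the 33 rose, 11 fell and 11 were not called, near the background of 58.3% called among all tested genes (29.2% rose and 29.2% fell). The median log2 fold change of the 33 was -0.16. E2F1, an activator of S-phase genes, had 7.12, 11.9 and 7.36 FPKM in U87 artesunate libraries, against 52.3, 60.0 and 58.4 FPKM in U87 control libraries. E2F1 fell by 2.63 ± 0.16 on the log2 scale (SE; edgeR adjusted p = 2.5e-07), CCNE2 by 2.17 ± 0.15 (edgeR adjusted p = 5.0e-07) and E2F2 by 1.95 ± 0.20 (edgeR adjusted p = 7.3e-06). MDM2, the ubiquitin ligase and target of p53, had 14.1, 12.7 and 12.5 FPKM in U87 artesunate libraries, against 5.12, 4.67 and 4.43 FPKM in U87 control libraries. MDM2 rose by 1.54 ± 0.11 (edgeR adjusted p = 5.5e-07), RBL2, the pocket protein p130, by 0.95 ± 0.08 (edgeR adjusted p = 1.6e-06) and FBXW7, which marks cyclin E for breakdown, by 0.91 ± 0.14 (edgeR adjusted p = 0.00017). All 6 were called under all 24 alternatives, and the GC and length correction moved E2F1 to -1.39, E2F2 to -1.26 and CCNE2 to -2.81. It moved the rises to 1.03 for MDM2, 0.55 for RBL2 and 0.68 for FBXW7. Among the other called genes, it ended the calls for the rises of CDK6 (-0.20), E2F5 (-0.09), CDK7 (0.03) and MNAT1 (0.27). It also ended the call for the fall of E2F4 (-0.16). RB1 went from a called rise at 0.45 to a called fall at -0.22 (edgeR adjusted p = 0.038). Without U87 artesunate 2, 24 of the 33 were called.

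The artesunate effect on 20 of the 33 genes differed between the lines, 8 higher and 12 lower in U251 minus U87. Among all tested genes 49.4% differed (24.1% higher and 25.3% lower). Beside the larger fall of CCND1 in U87 and the fall of CCND3 called only in U87, E2F1 differed by 2.44 ± 0.22 (SE; edgeR adjusted p = 9.6e-06). CDKN2D differed by 2.06 ± 0.27 (edgeR adjusted p = 8.7e-05) and CCNE2 by 1.56 ± 0.20 (edgeR adjusted p = 8.3e-05). On the other side were MDM2 at -1.80 ± 0.15 (edgeR adjusted p = 5.8e-06), MNAT1, a subunit of the CDK-activating kinase, at -1.31 ± 0.20 (edgeR adjusted p = 0.00021), and RBL2 at -1.17 ± 0.11 (edgeR adjusted p = 1.1e-05). The GC and length correction left 12 of the 33 called, and gave 0.94 for E2F1, 0.77 for CDKN2D, 2.44 for CCNE2, -1.22 for MDM2 and -0.69 for RBL2. It ended the call for MNAT1 (-0.42, edgeR adjusted p = 0.13).

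**Figure D5:**
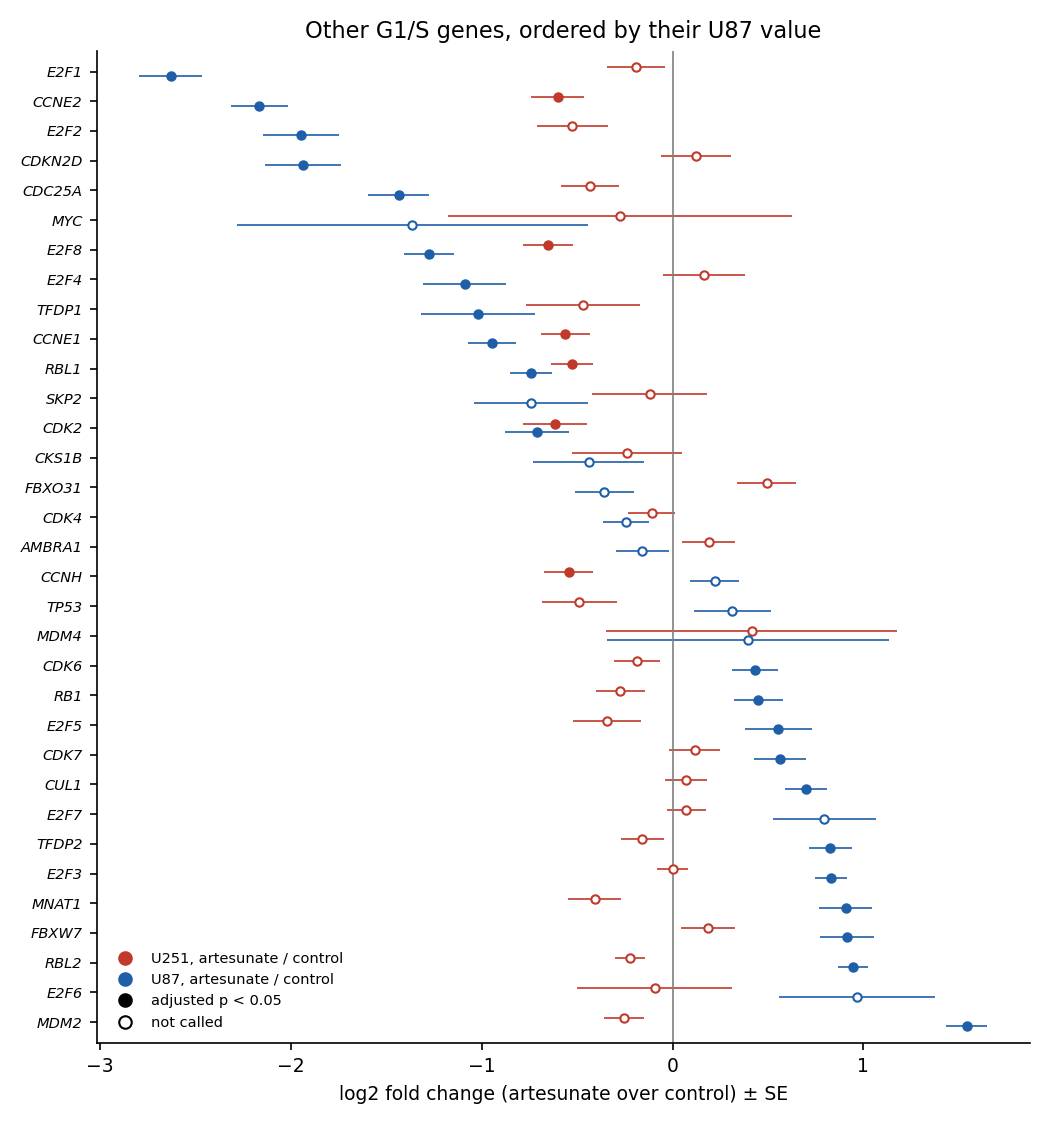
Log2 fold change of artesunate over control with its SE for the 33 other G1/S genes in U251 (red) and U87 (blue), ordered by the U87 value; filled points passed the adjusted p of 0.05. U87 values spread from E2F1 at -2.63 to MDM2 at 1.54, while the 6 filled U251 points lie between -0.65 and -0.53.

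The D cyclins' partner kinases were present at different levels in the lines. CDK6 had 19.7, 22.3 and 23.7 FPKM in U251 control libraries, against 6.05, 4.91 and 4.87 FPKM in U87 control libraries, and was higher in U251 by 2.08 ± 0.12 on the log2 scale (SE; edgeR adjusted p = 3.7e-08). CDK4 had 9.55, 9.36 and 10.7 FPKM in U251 control libraries, against 24.1, 18.1 and 23.2 FPKM in U87 control libraries, and was lower in U251 at -1.12 ± 0.12 (edgeR adjusted p = 7.1e-06). The ranges of each gene were apart. Of the 33 genes 8 were higher and 9 lower in U251 controls, where 32.5% of all tested genes were higher and 32.3% lower. E2F7, a repressor E2F, had 3 to 5 counts in each U87 control library, passed the filter through U251 alone and had to differ. It had 3012 counts in U251 control and 12 in U87 control libraries, a ratio of 267 (95% interval 152 to 517, exact binomial, counting error only). RBL2 was higher in U251 by 1.62 ± 0.08 (edgeR adjusted p = 6.5e-09), while SKP2, the ubiquitin ligase subunit that targets p27, was lower at -1.02 ± 0.30 (edgeR adjusted p = 0.010) and TFDP1, the E2F partner, at -0.97 ± 0.30 (edgeR adjusted p = 0.014).

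For each tested gene the protein-coding genes with the most similar profile over the 12 libraries were read from Pearson's r of log2 CPM. The profile of CCND1 was most like those of KCTD12 (r = 0.99) and MCM6 (r = 0.99), and that of CCND3 most like BRAT1 and CUEDC1 (both r = 0.99). MTAP was closest to XPO5 and HOXD10 (both r = 1.00), and CDKN1C to FTO (r = 0.98) and PCDH17 (r = 0.98). CDKN1A was closest to LMBR1L (r = 0.97) and SUSD6 (r = 0.95), and CDKN1B to KPNB1 (r = 0.82) and CS (r = 0.79). The 12 libraries fall into 2 lines and 4 groups, so these values describe shared group differences, most of all for MTAP and CDKN1C, which are near 0 in U87.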

How the data were processed

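Polyadenylated RNA of U251 and U87 cells was sequenced in 12 libraries, grouped by the sample labels. Per the submitters' processing notes and series text, reads were cleaned with fastp, aligned to GRCh38 (Ensembl release 91) by HISAT2 2.1.0, quantified with StringTie 1.3.3b and compared with edgeR 3.30.3. The deposited table holds whole-number counts per gene, not normalized per the file headers, and FPKM, which the authors derived after scaling by TMM. How the counts were made is not given in the sources used here, and neither is strandedness.

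Counts were fitted in R 4.3.3 with edgeR 4.0.16 (TMM, filterByExpr with minimum count 10 and minimum total 15, quasi-likelihood test, 1 mean for each of 4 groups over 12 libraries, common biological coefficient of variation 0.183). The fit covered 17150 of 35237 genes with a count, and p was Benjamini-Hochberg adjusted over all of them. SE is |log2 fold change| / √F. The fit was run on simulated data with 1 spread for all genes and far fewer changed genes than were called in U87. That check does not cover a contrast like the one in U87. Alternatives used DESeq2 1.42.0, limma 3.58.1 on log2(FPKM + 1) and log2(FPKM + 0.1), other scalings, no filter, only the libraries compared, a replicate block, a correction for GC content and length (GENCODE 29, spline with 5 degrees of freedom) and leaving out each library. Levels across genes are compared as deposited FPKM, with shares by CPM beside them. Such comparisons depend on the lengths behind the FPKM, which for CDKN1C exceed its gene span. The labels do not say that replicates are separate cultures, so p-values measure the spread between these libraries, which may be technical.

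The members and lists were chosen with earlier results of these data known. Text names all 10 members, the 3 called G1/S genes with the largest rise and fall in each comparison, protein-coding genes within 2 Mb of CDKN2A with a mean of at least 10 counts in any group, and for each tested member the 2 protein-coding genes (mean log2 CPM of at least 3) with the highest r. Other genes named were chosen after their values were seen.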

Additional observations from a re-analysis of the deposited data

Results flagged for a closer look

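The artesunate effects on CCND1 and CCND3 were singled out because they differed between the lines by the test of the difference itself, the interaction of line and treatment in edgeR. For CCND1 the difference, U251 minus U87, was 0.44 ± 0.08 on the log2 scale (edgeR adjusted p = 0.00099), with lower levels in all 3 artesunate libraries than in all 3 controls of each line. For CCND3 it was 1.74 ± 0.39 (edgeR adjusted p = 0.0031), with lower levels in all 3 U87 artesunate libraries and overlapping ranges in U251. Because each line had its own dose, the effect of line cannot be told apart from that of dose.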

How the results depend on the processing

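For single members, 463 alternative values of 20 results were computed: 452 kept their side of the threshold, 1 lost its call, 10 gained one and 0 reversed a call. Values that were not called changed sign under 1 to 4 alternatives each for CCND3 and CDKN1C in U251, for CDKN1B in every comparison and for the CDKN1A difference. The calls for MTAP in U251, for CCND1 in both lines and for CCND3 in U87, and the differences for both D cyclins, held under every alternative. The G1/S count in U251 was 6, became 2 without the filter on low counts, and ran from 2 to 9 when 1 library was left out. The difference of the G1/S effects, 20 genes, became 12 with the GC and length correction and 10 with that correction and the replicate block, where CDKN2D also lost its call. Calls over all tested genes in U251 numbered 1431, with 2328 by DESeq2, 864 without the filter, 2892 with only the libraries compared, 888 with the GC and length correction and replicate block, 2154 by limma on log2(FPKM + 1) and 652 to 2582 without 1 library. Those for the difference numbered 8477, with 5142 under the GC and length correction and 4426 with the block added. The cause of these shifts was not tested. Shares computed from CPM, which are not per length, gave CCND1 75.8% (U251 artesunate), 80.9% (U251 control), 95.3% (U87 artesunate) and 91.7% (U87 control), and CDKN1A 75.8% (U251 artesunate), 72.9% (U251 control) and 80.2% (U87 control). A 0.5 Mb window, which holds fewer genes, gave 3 genes at 0 in U251 (13 at 2 Mb) and 6 in U87 (25 at 2 Mb), and a 5 Mb window, chosen after seeing the data, gave 16 and 26. Correlations of same-numbered deviations ran from -0.00857 to 0.0533, and those of differently numbered libraries of a line from -0.0845 to 0.0443. With 3 libraries per group, these values cannot settle whether replicate numbers pair libraries. With the replicate block, 1170 genes were called in U251, 9725 in U87 and 8318 for the difference, and no call of a member changed. U251 artesunate 1 and 3 and U87 artesunate 1 and 2 correlated best with the control of their own number. U251 artesunate 2 and U87 artesunate 3 did not. At 3 counts per library the floor of 0.168 to 0.219 CPM limits what can be said of genes without counts.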
